A study of Oryza sativa with 156 samples.

Results

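Leaves of the rice cultivar IR64 from 3 libraries under moderate drought, labelled day 1 of the treatment, were compared with leaves from 3 irrigated control libraries of the same day. These 6 libraries were chosen by their labels, out of 156 in a series that followed a moderate and a severe drought course, each with its own controls, from day 0 to day 12. All plants grew in clay-filled pots in a growth chamber. For moderate drought, the water feed was shut off at 14 days after sowing and the pots drained through a hose, while controls stayed irrigated. Pots of the severe course were, in addition, lifted above the hose for quicker drainage. The measured quantity was the number of polyA RNA reads per gene. Seedlings were grown 1 to a pot, but the labels do not say whether a library is 1 plant. The p-values rest on a spread per gene that was estimated within groups over all 156 libraries, not from these 6 alone. Part of that spread may be technical. In whole leaves, fewer cells of a type and less RNA per cell cannot be told apart.

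Drying soil is sensed by the root and shoot, and the hormone abscisic acid carries much of the response in leaves. It closes the stomata, which are the pores for gas exchange, and acts through protein kinases on transcription factors that raise protective genes. Growth and photosynthesis genes are commonly reduced in leaves that lose water. The count table carries only locus identifiers, and the reference at hand pairs none of them with a gene name. No name or role is therefore given to any gene below, the groups of genes are defined by their response, and the leaf label could not be checked against marker genes.

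The 6 libraries held 17.2 to 21.6 M counts, within the 6.42 to 26.2 M of the whole series. Levels are given in CPM, which are counts scaled to the size and composition of each library, and 1 count was worth between 0.046 and 0.058 CPM in these libraries. The whole series falls into a higher and a lower set of libraries by the levels of a few genes. The mean log2 CPM of 3 genes that mark the sets lay between 2.90 and 4.08 in all 6 libraries, which puts both arms in the lower set. Beyond day 1, replicate 2 of the day 0 drought libraries stood at 6.15 on that measure, in the higher set, and the 3 severe day 1 drought libraries stood at 6.30 to 6.70 against 3.20 to 4.02 in their controls. Replicate 1 of the day 0 drought libraries stood apart in another way, since many genes that differed on day 1 were already shifted in it. Results that use those libraries are given with this in view.

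On day 1 of the moderate course, 3743 of the 19338 genes tested differed between drought and control leaves (19.4%), with 1551 higher in drought (8.02%) and 2192 lower (11.3%). A gene was called where the adjusted p of the edgeR quasi-likelihood test, with Benjamini-Hochberg adjustment over all genes tested, was under 0.05. Most of these changes were modest. The median log2 fold change was 0.63 among the risers and -0.79 among the fallers, against 0.0066 over all genes tested. A change of at least 2-fold was seen for 428 risers and 709 fallers, together 5.88% of genes tested, and one of at least 4-fold for 95 and 133. All 3 drought libraries lay on the far side of all 3 controls for 1505 of the 1551 risers and for 2128 of the 2192 fallers. Over all genes tested, the arms were apart in this way for 19.5% with drought higher and 21.5% with drought lower.

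The number of calls rested in part on replicate 1 of each arm. Without control replicate 1 there were 2180 calls, and without drought replicate 1 there were 2329. With both of those left out, 983 genes were called, and with both replicates 2 left out, 1833. None of the main calls was called in the opposite direction in any of these fits. The sign of genes that lost their call was not counted.

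**Figure D1:**
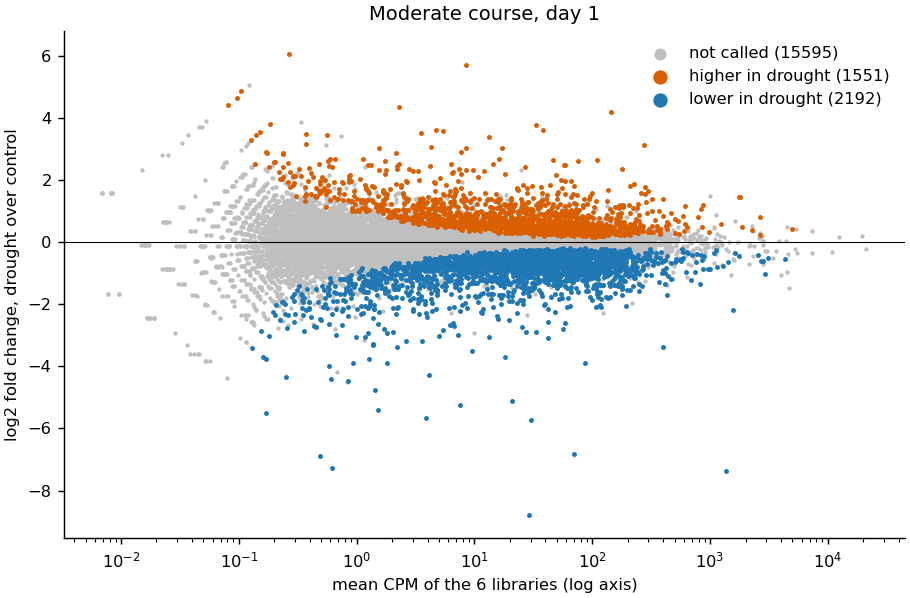
Each point is 1 gene: the x axis is its mean level over the 6 libraries in CPM (log axis) and the y axis its log2 fold change, drought over control. Orange points are the 1551 genes called higher in drought, blue points the 2192 called lower and grey points the genes not called, and the largest falls reach further from 0 than the largest rises.

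Calls were more frequent among well expressed genes. Of 3744 genes with a mean level under 1 CPM, 5.29% were called, and of 1678 genes over 100 CPM, 34.9%. The size of the called changes ran the other way, with a median absolute log2 fold change of 1.93 in the lowest class and 0.60 in the highest. At low counts a gene needs a large change to be called, and 197 of the 198 called under 1 CPM changed at least 2-fold. These medians therefore do not show that weakly expressed genes responded more. The median standard error of a log2 fold change over all genes was 0.22. No gene went from absent to present: none with at least 10 counts in every library of one arm had 0 counts throughout the other.

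The largest rise among genes named here was that of LOC_Os03g54130. Its level was 3.60, 15.2 and 26.7 CPM in the controls and 351, 221 and 251 CPM in drought. Every drought library was several times above the highest control, and the log2 fold change was 4.18 (SE 0.81, adjusted p = 8.11e-05, edgeR quasi-likelihood test, n = 3 per arm). On day 0 the level in the drought libraries was already 115 CPM in replicate 1, against 8.54 and 10.6 CPM in the others. On days 2 to 4 it lay between 113 and 176 CPM in all 9 drought libraries and between 7.76 and 44.5 CPM in all 9 controls. The day 1 drought libraries were thus the highest of those days.

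The second identifier named among the risers, LOC_Os01g60830, had a very even control level and a wide spread in drought. It stood at 4.52, 4.51 and 4.39 CPM in the controls and at 110, 59.7 and 15.2 CPM in drought. The arms did not overlap, though drought replicate 3 was far below the other 2. The log2 fold change was 3.78 (SE 0.97, adjusted p = 0.00275, edgeR), and without both replicates 1 the gene was no longer called (3.09, adjusted p = 0.0996). On day 2 a single drought library, replicate 1 at 43.0 CPM, was well above the controls, and the gene was called on only 1 of days 2 to 12 of this course.

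Among the fallers, LOC_Os09g36680 had a high read count in the irrigated leaves of day 1. It stood at 4458, 2090 and 1631 CPM in the controls and at 1.60, 14.8 and 33.1 CPM in drought. Its log2 fold change was -7.36 (SE 1.92, adjusted p = 0.00311, edgeR), and the call ended without both replicates 1 (-6.27, adjusted p = 0.0776). This gene also varied among irrigated leaves on other days. The controls of day 0 were close together at 3284, 3257 and 3219 CPM, but those of day 2 stood at 109, 338 and 90.5 CPM, and those of day 3 at 152, 3700 and 3362 CPM. A low level was therefore also found in irrigated libraries, though none of the 15 controls of days 0 to 4 was as low as the day 1 drought libraries.

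LOC_Os09g36700, whose identifier lies close by in the table, had the same shape at a lower level. Its control values were 114, 23.9 and 36.6 CPM, and its drought values 0.050, 0.099 and 0.21 CPM, which are 1, 2 and 5 counts. The log2 fold change was -8.78 (SE 2.10, adjusted p = 0.00123, edgeR), with the same loss of the call without both replicates 1 (-7.50, adjusted p = 0.0581). The size of such a fold rests on those few counts. On day 2 the controls had also dropped to 1.66, 2.15 and 0.29 CPM, and the day 2 difference was not called (log2 fold change -1.47, adjusted p = 0.745). If the 2 loci are close copies, reads could be shared between them.

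**Figure D2:**
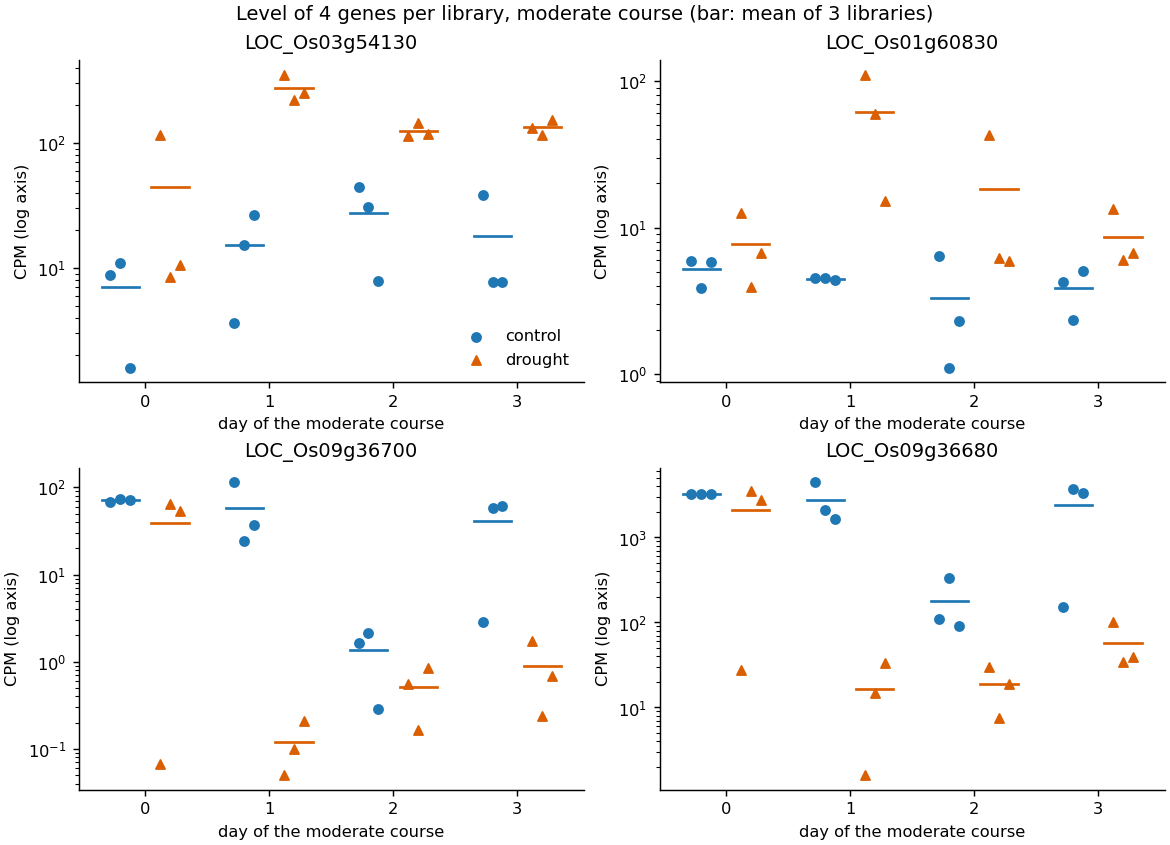
Level of the 4 genes in CPM (log axis) in every moderate course library of days 0 to 3, with circles for control, triangles for drought and bars for the mean of 3 libraries. On day 1 the arms are apart for all 4 genes, on day 0 drought replicate 1 lies near the day 1 drought libraries for both genes that fell, and on day 2 the controls of those genes are low as well.

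The called genes held a sizeable part of the leaf's polyA reads. The 1551 risers made up 7.76% to 8.30% of the scaled counts in the controls and 11.4% to 13.4% in drought. The 2192 fallers made up 17.9% to 21.5% in the controls and 11.4% to 12.4% in drought. These shares describe the called genes and test nothing, since the same libraries chose them. Of the gain, 77 risers held 50%, and 143 fallers held 50% of the loss. Whether this is more uneven than the spread of reads over genes in general was not tested. The largest single gain was 1651 CPM, while LOC_Os09g36680, with the largest loss, fell by 2710 CPM on average.

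The 6 libraries formed 2 clear groups, with a gradient inside each. Across 10541 well expressed genes, which are not independent replicates, log2 CPM correlated at 0.978 to 0.989 within an arm and at 0.904 to 0.963 between arms. The first principal component held 75.6% of the variance and placed the controls at -33.4, -26.1 and -16.7 and the drought libraries at 32.2, 26.0 and 18.0, in the order of replicates 1, 2 and 3. Replicate 3 was nearest to the opposite arm in both. Drought replicate 3 was the drought library closest to the controls for 56.1% of the risers and 49.5% of the fallers. Control replicate 3 was the control closest to drought for 50.8% of the risers and 64.8% of the fallers. The median rise over the control mean was 0.71, 0.61 and 0.53 on the log2 scale in the 3 drought libraries, and the median fall was -0.77, -0.78 and -0.72; the sign of these medians is fixed by the choice of genes in the same libraries.

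A readout that shares no library with the comparison came from day 3 of the severe course, whose arms both lie in the higher library set. The genes called there, 1690 higher (8.74%) and 1930 lower (9.98%), were read in the moderate day 1 libraries. Of the former, 95.2% were on the positive side on moderate day 1, with a median log2 fold change of 0.40, and of the latter 95.3% were on the negative side, with a median of -0.62. Over all genes tested, 50.7% were on the positive side.

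As a score per library, the mean log2 CPM of 1245 well expressed severe day 3 risers minus that of 1446 fallers was taken, centred over the moderate libraries. The score was 1.18, 1.01 and 0.93 in the day 1 drought libraries and -0.34, -0.11 and 0.16 in the controls. The arms were far apart, and the day 1 drought libraries were the 3 highest of the moderate course. The day 0 drought libraries stood at 0.59, 0.10 and -0.03, so that replicate 1 lay between its companions and the day 1 libraries, while the day 0 controls stood at -0.34, -0.25 and -0.76.

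**Figure D3:**
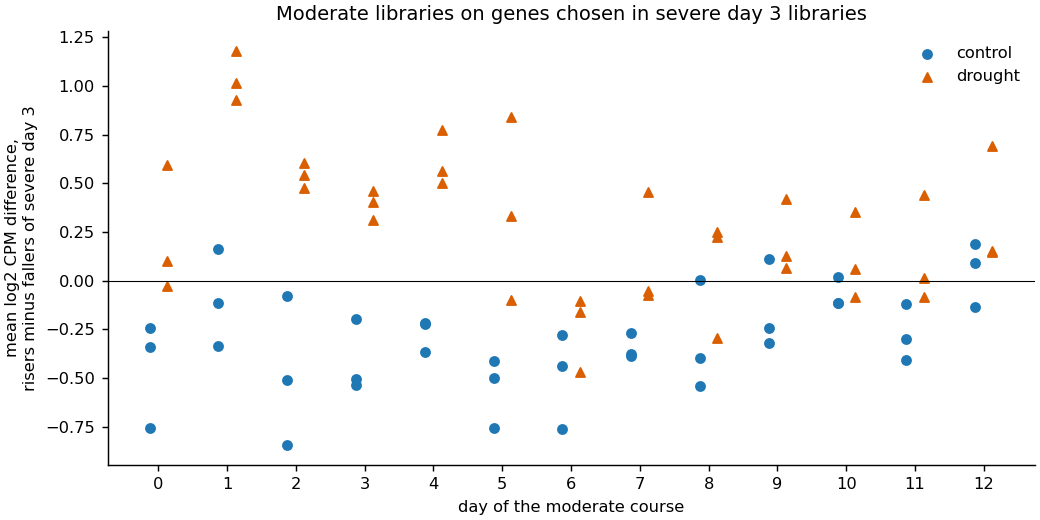
Score of every moderate course library (y axis, log2 CPM difference) by day (x axis), with circles for control and triangles for drought, for genes chosen in severe day 3 libraries. The day 1 drought libraries, at 0.93 to 1.18, are the highest of the course, and on day 0 the drought libraries are already above the controls.

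The arms differed before day 1. On day 0, 908 genes were called between drought and control (4.7%), 325 higher (1.68%) and 583 lower (3.01%). Of the day 1 risers, 206 were already called higher on day 0 (13.3%), and of the fallers 504 were already called lower (23.0%), with none called the other way. The median day 0 log2 fold change was 0.32 for the day 1 risers and -0.42 for the fallers, and 94.0% and 94.8% of them had the day 1 sign. The day 0 and day 1 libraries are separate. The labels do not say whether day 0 leaves were taken before or after the water was shut off, and the part of the day 0 drought libraries that stand apart in these medians was not tested.

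The increase from day 0 to day 1 was not resolved gene by gene. In a test of the day 1 difference minus the day 0 difference, edgeR's quasi-likelihood test called 0 of 19338 genes (0%), with 1153 at an unadjusted p under 0.05 and a smallest adjusted p of 0.255. DESeq2 on the 12 libraries alone called 123, of which 110 were more negative on day 1. With any 1 of the day 0 drought libraries left out, edgeR still called 0. The median standard error of this double difference was 0.31 on the log2 scale. For LOC_Os09g36680 the estimate was -6.74 (SE 2.25, adjusted p = 0.618), with day 0 drought levels of 27.3 CPM in replicate 1 and 3562 and 2741 CPM in replicates 2 and 3.

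Within an arm, the move from day 0 to day 1 was seen in drought. Between the day 0 and day 1 drought libraries, 1453 genes were called (7.51%), 465 higher on day 1 (2.4%) and 988 lower (5.11%). Between the day 0 and day 1 controls, edgeR called 0 (0%), while 879 had an unadjusted p under 0.05 and DESeq2 called 88. The drought count depended on which day 0 drought library was left out: it was 2088 without replicate 1, and 376 without replicate 2 and likewise without replicate 3. It fell to 946 with the library set as a term of the model, and to 124 with both replicates 2 left out. Against the mean of days 0 and 2, a comparison added after the data were seen, the day 1 drought libraries differed in 1167 genes (6.03%), 396 higher (2.05%) and 771 lower (3.99%). The day 1 controls differed from theirs in 38 (0.197%), 25 higher (0.129%) and 13 lower (0.0672%). Whether the arms moved by different amounts was the question of the double difference, which had 0 calls.

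Some of the day 1 genes were called again in the same direction on every later day of the course. On day 2, 256 of the 1551 risers were called higher again (16.5%, against 3.35% of all genes) and 842 of the 2192 fallers lower again (38.4%, against 6.39%). On day 3 the numbers were 242 and 316 (15.6% and 14.4%, against 2.18% and 2.14%). On day 4 they were 411 and 610 (26.5% and 27.8%, against 4.26% and 4.83%), and on day 5 416 and 628 (26.8% and 28.6%, against 6.36% and 6.39%). Later counts were lower. They were 71 and 60 on day 6 (4.58% and 2.74%, against 1.09% and 1.17%), 148 and 124 on day 7 (9.54% and 5.66%, against 2.63% and 1.99%) and 42 and 14 on day 8 (2.71% and 0.64%, against 0.434% and 0.165%). On day 9 they were 150 and 50 (9.67% and 2.28%, against 1.42% and 0.527%), and on day 10 35 and 10 (2.26% and 0.46%, against 0.409% and 0.129%). They stood at 190 and 116 on day 11 (12.3% and 5.29%, against 2.93% and 2.62%) and at 55 and 13 on day 12 (3.55% and 0.59%, against 0.641% and 0.212%). On each of these days the share of the day 1 genes called again was above that of all genes in both directions. All days share the same spread per gene, and well expressed genes are called more often. A gene called on day 1 is thus easier to call on other days too. No share matched for level was taken, here or for the shares called that are given below. At most 12 fallers and 7 risers were called the opposite way on any one of days 2 to 12.

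The medians tell the same course without a threshold. For the risers the median log2 fold change lay between 0.29 and 0.36 from day 2 to day 5 and between 0.10 and 0.23 from day 6 onwards. For the fallers it lay between -0.47 and -0.33 from day 2 to day 5 and between -0.13 and -0.05 from day 6 onwards. A gene picked for its difference on day 1 tends to be overestimated on that day, so the step from day 1 to day 2 in these medians is no measure of decline.

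Part of the day 1 response was called again later in the course and part was not. Of the risers, 845 were called higher again on at least 1 of days 2 to 12 (54.5%, against 14.7% of all genes tested), and of the fallers 1255 were called lower again (57.3%, against 15.3%). The sign of day 1 was kept on all 11 later days by 559 risers (36.0%) and 605 fallers (27.6%), while 7.83% of all genes tested were positive and 7.34% negative on all 11 days. The other 706 risers and 937 fallers were not called again in the same direction, which does not show that they returned to the control level. With those already called on day 0 taken out, 648 and 724 were called on day 1 and on no other day of the course.

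Recurrence reached its limit in 2 risers of moderate size, picked here after their values were seen. LOC_Os09g28310 was at 40.7, 40.7 and 37.1 CPM in the day 1 controls and at 103, 79.7 and 60.5 CPM in drought, without overlap. Its log2 fold change was 1.04 (SE 0.19, adjusted p = 2.15e-05, edgeR), and it stayed between 0.70 and 1.01 on days 2 to 12, called on all 11. LOC_Os01g63150 was at 24.7, 22.1 and 21.3 CPM in the controls and 35.9, 33.1 and 29.3 CPM in drought. It differed by only 0.53 (SE 0.16, adjusted p = 0.0102, edgeR), and by 0.54 to 1.06 on the later days, again called on all 11. Small, even differences were thus found beside the large and variable ones of the 4 genes above.

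**Figure D4:**
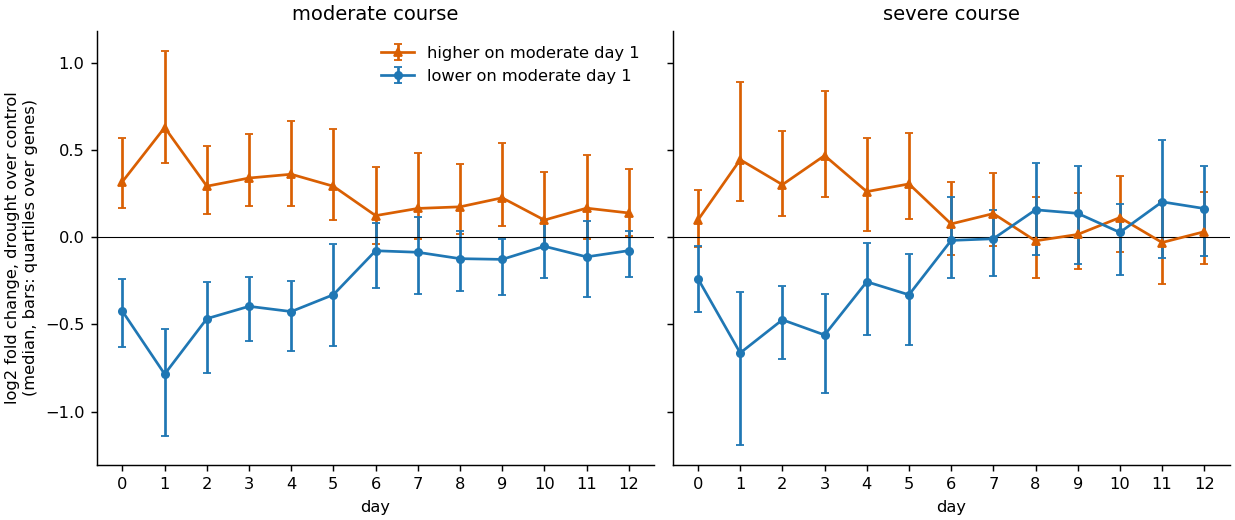
Median log2 fold change, drought over control (y axis; bars are quartiles over genes), by day for the 1551 genes higher (triangles) and the 2192 lower (circles) on moderate day 1, in the moderate course (left) and the severe course (right). The day 1 values of the moderate course chose the genes; the medians keep their sign on all later moderate days, while on severe days 8 to 12 the median of the day 1 fallers is above 0, on day 10 by only 0.03.

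The severe course, which shares no library with these 6, met the day 1 genes too. On its day 1, 843 of the moderate risers were called higher (54.4%, against 19.1% of all genes) and 1396 of the fallers lower (63.7%, against 17.1%). These are 22.8% of the severe risers and 42.1% of the severe fallers of that day. Opposite calls were made for 11 risers and 15 fallers. The severe day 1 drought libraries lie in the higher library set and their controls in the lower, so treatment and set cannot be told apart in those calls. On severe day 3 both arms lie in the higher set. On severe day 3, 738 risers and 1136 fallers were called in the same direction (47.6% and 51.8%, against 8.74% and 9.98%) and none in the opposite one.

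Late in the severe course most of the day 1 fallers were on the other side on some days. Their median log2 fold change lay between 0.14 and 0.20 on severe days 8, 9, 11 and 12. On day 10 it was 0.03, with 125 fallers called lower and 31 called higher. On day 11, 588 of the 2192 were called higher in drought (26.8% of them, against 9.46% of all genes) and 108 lower. Of the 1551 risers, 168 were called lower on that day and 107 higher, with a median log2 fold change of -0.03. Over all 19338 genes tested, 1606 were called lower on that day and 1829 higher. On days 8 to 12 the controls lie in the higher library set and the drought libraries in the lower, so the treatment and the library set cannot be told apart there. In the moderate course, where the arms share a set on these days, no such turn was seen in the medians.

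Whether the day 1 difference itself depended on the course was tested as severe minus moderate. In this test 540 genes were called by edgeR (2.79%), 348 more positive in the severe course (1.8%) and 192 more negative (0.993%). Of these, 105 were called on moderate day 1 (19.4%), the same share as among all genes tested, and 435 were not. The severe day 1 arms lie in different library sets, and with the set as a term of the model, estimated from the 2 groups that hold libraries of both sets, only 2 genes were called. The count was also 64 to 229 with 1 replicate number left out (64 without replicate 3, 69 without replicate 1 and 229 without replicate 2). The 540 calls therefore cannot be told apart from the library set.

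One of the genes still called with that term was LOC_Os04g16728. On moderate day 1 it was at 3.37, 2.79 and 2.33 CPM in the controls and 5.61, 3.70 and 4.76 CPM in drought. On severe day 1 it was at 12.3, 11.2 and 12.1 CPM in the controls and 2.02, 1.64 and 2.05 CPM in drought. The arms were apart in opposite directions, though the moderate difference alone was not called (log2 fold change 0.73, adjusted p = 0.127, edgeR). The difference between the courses was -3.36 (SE 0.51, adjusted p = 2.83e-05), or -3.15 (adjusted p = 0.0176) with the library set as a term. The gene nevertheless moved with the set across the severe course. Its severe log2 fold change was -2.41 on day 0 and -2.83 on day 2, -0.16, -0.30 and -0.37 on days 3 to 5, when both arms lie in the higher set, and 0.60 to 1.42 on days 6 to 12, when the controls lie in the higher set and drought in the lower. The course and the library set cannot be told apart for this gene either.

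**Figure D5:**
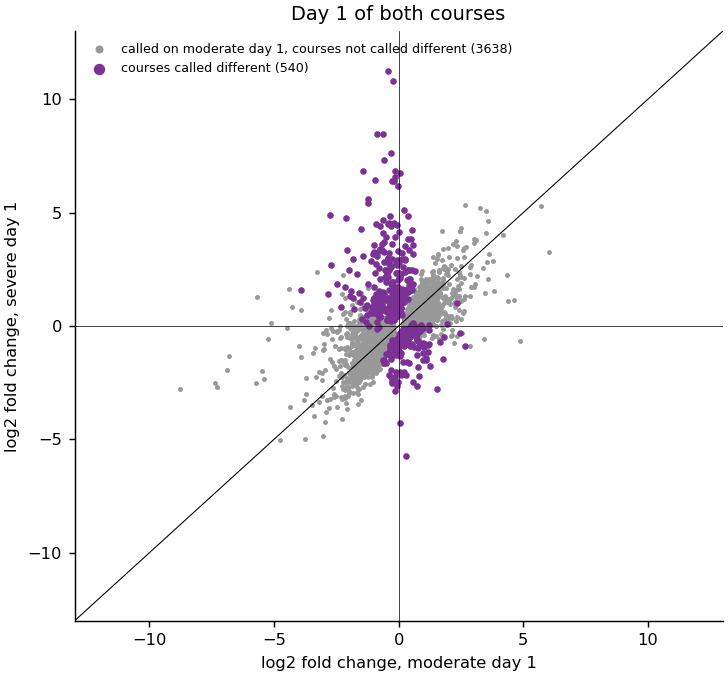
Log2 fold change, drought over control, on day 1 of the moderate course (x axis) and of the severe course (y axis), 1 point per gene. Grey points are the 3638 genes called on moderate day 1 whose difference between courses was not called, purple points the 540 called different, and the line marks equal change; the purple points lie mostly near 0 on the moderate axis.

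Against the mean of days 2 to 4 of the same course, few genes had a day 1 difference of another size. The test called 10 genes (0.0517%), 2 more positive (0.0103%) and 8 more negative (0.0414%) on day 1, with 1653 at an unadjusted p under 0.05. On only the libraries compared, edgeR called 141 and DESeq2 464, while with 1 replicate number left out edgeR called 0 without replicate 1, 0 without replicate 2 and 1 without replicate 3. LOC_Os06g40080 was at 49.6, 63.9 and 61.7 CPM in the day 1 controls and 392, 308 and 201 CPM in drought. Its drought level on days 2 to 4 lay between 105 and 192 CPM, below all 3 day 1 libraries. Its log2 fold change was 2.36 on day 1 (SE 0.30, adjusted p = 1.37e-08, edgeR) and exceeded the later mean by 1.61 (SE 0.34, adjusted p = 0.0214), a call lost without any 1 replicate number (adjusted p = 0.0753 to 0.788).

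Among the 8 genes more negative on day 1, LOC_Os03g12660 was at 167, 168 and 130 CPM in the controls and 52.7, 59.1 and 70.3 CPM in drought on day 1. On days 2 to 4 its drought levels, 96.2 to 178 CPM, overlapped its control levels, 101 to 154 CPM. Day 1 fell below the later mean by 1.38 on the log2 scale (SE 0.29, adjusted p = 0.0214, edgeR), and this call too was lost without any 1 replicate number (adjusted p = 0.0753 to 0.589).

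Called genes lay side by side in the table somewhat more often than their share of all genes. For 209 of the 1551 risers (13.5%, against 8.02% of genes tested) the next tested identifier was called higher too, and for 302 of the 2192 fallers (13.8%, against 11.3%) it was called lower. Runs of at least 3 neighbours in the same direction numbered 24 and 41, and the longest held 5 genes. Neighbouring loci can be copies or overlap, and shared reads between them were not tested.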

How the data were processed

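The deposited values are raw counts of reads per gene in 1 table. The submitters' processing notes name the aligner STAR, the counter featureCounts 2.0.0 and the build IRGSP-1.0; the library kit keeps the strand, per the labels' protocols. How strand and multiply matching reads were handled is not given in the sources used here, so overlapping genes and close copies may share counts. Columns were matched to samples by name, and 4 columns without a matching sample were left out. A RefSeq gene table of assembly ASM3414082v1 paired 0 of the 55986 identifiers with a name.

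Counts were tested with edgeR 4.0.16 in R 4.3.3: filterByExpr (minimum count 10, minimum total 15) kept 19338 genes, libraries were scaled by TMM, and glmQLFit and glmQLFTest were run with 52 group means over all 156 libraries (104 residual degrees of freedom). Calls needed a Benjamini-Hochberg adjusted p under 0.05. CPM used TMM-scaled totals; log2 CPM had a prior count of 2. DESeq2 1.42.0 was an alternative. The genes named were the called ones with the largest fold changes whose mean log2 CPM reached 1 and, on day 1, had arms that do not overlap, at most 2 in each direction per comparison. The libraries, gene groups and rules were chosen with earlier results of these data known. No 2 libraries of an arm agreed within sampling noise, with chi-squares of 11.1 to 33.3 per gene.

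The method was tested on simulated counts with changed genes. In the day 1 comparison it recovered 25 of 66 genes changed 1.5-fold, 43 of 63 changed 2-fold and 58 of 64 changed 4-fold, and called 10 of 18596 unchanged genes. In the day 1 minus day 0 test it recovered 6, 31 and 47 of them. The simulation was simpler than the data. Few genes were changed, only in the day 1 drought group, and all groups otherwise shared a common mean per gene. No library sets, day effects or gradients within an arm were included, so these rates may not hold for the real libraries.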

Additional observations from a re-analysis of the deposited data

Results flagged for a closer look

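The difference between drought and control on day 1 was called different between the severe and the moderate course for 540 genes (edgeR, adjusted p under 0.05), of which 2 were still called with the library set as a term. LOC_Os03g08330 differed by 5.18 on the log2 scale, with 6.40, 4.65 and 6.24 CPM in moderate controls, 9.07, 2.17 and 2.55 CPM in moderate drought, 0.38, 1.82 and 1.59 CPM in severe controls and 5.04, 41.5 and 65.5 CPM in severe drought. LOC_Os04g41960 differed by 4.55, with 6.14, 34.5 and 295 CPM in severe drought against 4.00, 12.9 and 10.9 CPM in its controls. Without both replicates 3 the difference was 1.77 and no longer called (adjusted p = 0.32). On severe day 4 both genes were instead called lower in drought by edgeR. The log2 fold change there was -6.53 for LOC_Os03g08330 (adjusted p = 2.08e-09) and -6.99 for LOC_Os04g41960 (adjusted p = 4.25e-14). LOC_Os05g31140 differed by -6.02, with 199, 211 and 98.5 CPM in severe controls against 4.52, 5.72 and 3.81 CPM in moderate controls, and LOC_Os04g16728 by -3.36. The day 1 drought levels of LOC_Os05g31140 were 8.3, 4.5 and 4.5 CPM in the moderate and 1.8, 2.5 and 5.0 CPM in the severe course. Its moderate controls also varied between days, with 34.8, 127 and 134 CPM on day 2. With the library set as a term, the calls of LOC_Os03g08330, LOC_Os04g41960 and LOC_Os05g31140 ended (adjusted p = 0.297, 0.0983 and 0.381), although the estimates were still 4.92, 4.68 and -4.62.

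The day 1 difference was called different from the mean of days 2 to 4 for 10 genes. LOC_Os06g40080 differed by 1.61 and LOC_Os03g12660 by -1.38. LOC_Os01g04800 differed by -1.75, a call lost without any 1 replicate number (adjusted p = 0.0537 to 0.535, with -1.07 without replicate 3) and with dispersions estimated beforehand (0.0781). Here 2 of the 3 day 1 controls, at 6.42 and 12.6 CPM, stood above the 1.40 to 3.65 CPM of the controls of days 2 to 4, the other was at 3.14 CPM, and the day 1 drought libraries were at 4.71, 3.31 and 3.51 CPM.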

How the results depend on the processing

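The day 1 count of 3743 stayed within 1.5 times with no filter on low counts, under DESeq2 size factors, dispersions estimated beforehand, the library set as a term, and fits of the moderate course or of the 6 libraries only (edgeR 4567, DESeq2 4635). It was 1137 at a minimum of 2-fold, 2180 to 3441 without 1 library and 983 to 2910 without 1 replicate number. Day 1 minus day 0 gave 0 calls except 123 with DESeq2 on the compared libraries. Severe minus moderate, 540, was 330 at 2-fold, 1294 with DESeq2, 335 on the compared libraries only, 229 with no filter, 2 with the library set as a term and 64 to 229 without 1 replicate number. Day 1 minus days 2 to 4, 10, was 464 with DESeq2, 141 on the compared libraries only, 4 with dispersions estimated beforehand and 0 to 1 without 1 replicate number. The drought move from day 0 to day 1, 1453, was 537 at 2-fold, 870 with no filter, 946 with the library set, 376 to 2088 without 1 day 0 drought library and 124 to 899 without 1 replicate number. The control move, 0, was 88 with DESeq2 and 1 on the compared libraries only. The cause of these shifts was not tested, apart from the fewer samples or the fold minimum that define a setting.

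Replicate numbers did not pair the arms (deviations of same-numbered libraries correlated at -0.22, -0.19 and 0.0085). With the replicate number as a block in fits of the compared libraries, the counts were 3495 for day 1 (3931 over all libraries), 0 for day 1 minus day 0, 295 for severe minus moderate, 209 for days 2 to 4, 1921 for the drought move and 1 for the control move. The library set and the single day 0 libraries were added after seeing the data. Counts of listed genes were not run, since no identifier could be placed by name.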

Other observations

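Genes that were high on day 1 against both of its neighbouring days were seen in each arm, in the comparison with the mean of days 0 and 2. In drought, LOC_Os09g36200 was at 17.7, 4.83 and 7.37 CPM in the day 0 drought libraries, 114, 65.4 and 34.2 CPM on day 1 and 10.6, 5.62 and 6.13 CPM on day 2, and its controls of the 3 days lay between 3.26 and 7.67 CPM. It was near the control level on day 2, but was called higher in drought again on day 4 (log2 fold change 2.64, adjusted p = 0.0083, edgeR) and day 5 (3.53, adjusted p = 0.00145), against 3.61 on day 1. LOC_Os03g08490 was higher on day 1 in the controls too, at 13.7, 18.4 and 33.2 CPM against 4.06 to 9.45 CPM on day 0 and 3.71 to 4.33 CPM on day 2, and its drought libraries on day 1 stood at 35.6, 22.3 and 19.8 CPM, overlapping those controls.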
